A study of Caenorhabditis elegans with 15 samples.

Results

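The cytosolic ribosomal protein genes encode the proteins of the large subunit (rpl genes) and of the small subunit (rps genes) of the ribosome that translates nuclear mRNAs. They were taken as the WormBase IDs from WBGene00004412 to WBGene00004456 for the rpl genes and from WBGene00004469 to WBGene00004499 for the rps genes, which gave 45 rpl and 31 rps members, 76 of 46934 genes in the table. The IDs come with no symbols. RefSeq's gene table for WBcel235 lists 48 rpl and 30 rps protein-coding symbols and pairs none with a WormBase ID, so the class of a member is that of its ID range, and which ribosomal protein a given ID encodes is not given here. The symbols of this family lie on all 6 chromosomes in that table, with 23 on chromosome I, 11 on II, 18 on III, 17 on IV, 7 on V and 2 on X, and their gene spans run from 276 to 1734 bp.

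In animal cells the ribosomal proteins are needed in nearly equal numbers, and their short, abundant mRNAs are among the most translated of growing cells. Proteins of the eIF4E family recognise the cap at the 5' end of an mRNA and can bring it to the ribosome or hold it in a repressed particle. C. elegans has several eIF4E paralogs. IFE-1 is a germline form that is found at P granules and can bind both the common cap and the trimethylated cap that trans-splicing gives to many worm mRNAs, and IFE-3 is a form that prefers the common cap.

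The study asked which mRNAs each paralog holds. Whole worms of strain KX155, with mKate on IFE-1 (chromosome III) and GFP on IFE-3 (chromosome V) at their own loci by CRISPR, gave IFE-1 RIP from RFP trap beads, IFE-3 RIP from GFP trap beads and total RNA from the lysate. RIP is a pull-down of a protein followed by sequencing of the RNA bound to it. Strain LP307, with mKate::PH inserted on chromosome II, gave mKate control RIP from RFP trap beads, and strain LP306, with GFP::PH inserted on the same chromosome, gave GFP control RIP from GFP trap beads. All worms were grown for 3 days at 20 °C, and each of the 5 groups has 3 libraries called biological replicates in the labels. According to the design notes mRNA was poorly represented in the tag-alone RIPs, and the authors did not analyse them. The controls carry a tag without an eIF4E in another strain, so in a control against total RNA strain and trap cannot be told apart. In a bait against its control, bait and strain cannot be told apart. The labels name the RFP pulldown, the GFP pulldown and the lysate as batches, and only a RIP and its own control share one. In whole worms fewer cells of a type and less RNA per cell cannot be told apart, and marker genes of tissues and of the baits were not checked, since no symbols are paired with the IDs.

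Levels are given as scaled TPM. TPM is the authors' abundance per gene, corrected for length and summing to the same total in each library, and each library was divided by the median ratio of its genes to their geometric mean. Sequencing depth and the amount of RNA recovered cannot be read from TPM, and no counting interval can be given. The 10 highest genes held 57.6% to 75.5% of the TPM of a library, so a few RNAs set much of the level of all others. Libraries of the control groups stood apart from each other. GFP control RIP replicate 3 had the highest ribosomal protein level of all 15 libraries and mKate control RIP replicate 1 the lowest. The median log2 fold change of the members is also given without them in the comparisons that use them. Summed shares, the group order, centred levels and the difference between the bait over control differences are given with all libraries only.

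Ribosomal protein mRNAs were abundant in every library. In total RNA, 74 of the 76 members averaged from 59.9 to 2102 scaled TPM, with a median of 514, a 35.1-fold range between members. The rpl members among them had a median of 537 and the rps members of 499.8. All 74 ranked between 23 and 746 among all genes in total RNA, 22 of them in the first 100 and 73 in the first 500. These 74 reached 1 TPM in all 15 libraries. The other two, both rpl IDs, were close to 0. WBGene00004451 lay between 0 and 2.52 TPM over the 15 libraries, with 3 libraries listed at 0. WBGene00004455 lay between 0 and 0.924 TPM, with 1 library listed at 0. They did not pass the filter of 1 TPM in 3 libraries and enter no test. No member had values identical to those of another gene in every library.

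The highest member was WBGene00004453, an rpl gene, with 2593, 2987 and 3741 scaled TPM in replicates 1, 2 and 3 of the IFE-1 RIP, and with 2378, 2526 and 3611 in the IFE-3 RIP. The same gene stood at 915, 1345 and 2171 in the mKate control RIP, at 1404, 1474 and 3543 in the GFP control RIP and at 1860, 2269 and 2178 in total RNA. Its libraries of both IFE RIPs lay above all total RNA libraries, and those of mKate control RIP replicates 1 and 2 lay below them. GFP control RIP replicates 1 and 2 lay below them as well, and GFP control RIP replicate 3 lay above them. The other members of the first 5 were the rps genes WBGene00004477 and WBGene00004495, with 1232 ± 162 and 1048 ± 107 in total RNA, and the rpl genes WBGene00004452 and WBGene00004450, with 1165 ± 88.3 and 1026 ± 92.6 (± SD, n = 3). The lowest of the 74 was WBGene00004437, an rpl gene, with 59.9 ± 6.76 in total RNA. Above it came WBGene00004438 with 129 ± 14.5, WBGene00004423 with 133 ± 3.10, WBGene00004454 with 165 ± 14.6 and WBGene00004499 with 172 ± 11.4 scaled TPM (± SD, n = 3), the last an rps gene and the others rpl genes.

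Summed over the family, the rpl members held 2.56%, 2.93% and 3.46% of the deposited TPM in replicates 1, 2 and 3 of the IFE-1 RIP and 2.36%, 2.49% and 3.31% in the IFE-3 RIP. They held 1.19%, 1.77% and 2.40% in the mKate control RIP, 2.26%, 2.77% and 4.79% in the GFP control RIP and 1.79%, 1.78% and 1.82% in total RNA. The rps members held 1.63%, 1.88% and 2.28% in the IFE-1 RIP, 1.53%, 1.63% and 2.20% in the IFE-3 RIP, 0.780%, 1.15% and 1.60% in the mKate control RIP, 1.46%, 1.85% and 3.24% in the GFP control RIP and 1.32%, 1.29% and 1.39% in total RNA. All libraries of IFE-1 RIP, IFE-3 RIP and GFP control RIP lay above all total RNA libraries in both sums, and the mKate control RIP libraries lay on both sides of them.

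These shares depend on the few highest RNAs. When the 10 genes with the highest mean TPM were left out of the total, both classes together held 14.9 ± 1.81% in the IFE-1 RIP, 12.4 ± 1.90% in the IFE-3 RIP, 10.8 ± 2.88% in the mKate control RIP, 15.4 ± 3.14% in the GFP control RIP and 12.5 ± 0.0987% in total RNA (± SD, n = 3). On this scale the IFE-3 RIP libraries, from 10.6% to 14.4%, overlapped the total RNA libraries, from 12.4% to 12.6%, while the IFE-1 RIP libraries, from 13.1% to 16.7%, lay above them. The large and small subunit genes kept a similar ratio in all trap libraries. The mean TPM of an rpl gene over that of an rps gene was between 1.05 and 1.08 in the IFE-1 RIP libraries, 1.04 and 1.06 in the IFE-3 RIP, 1.03 and 1.06 in the mKate control RIP and 1.02 and 1.07 in the GFP control RIP. It was lower in total RNA, between 0.902 and 0.945, and no trap library overlapped total RNA in this ratio.

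**Figure D1:**
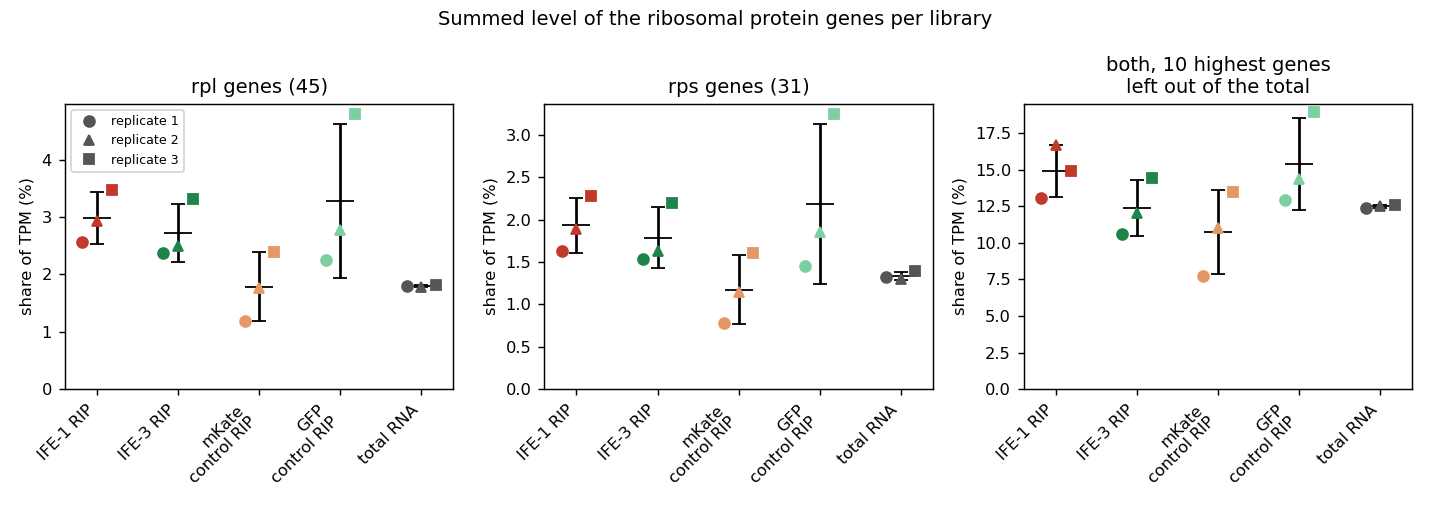
Share of the TPM (%) held by the rpl genes, by the rps genes and by both with the 10 highest genes left out of the total, in each library of the 5 groups. Points are libraries, with the mean and SD of 3. Total RNA libraries lie close together, GFP control RIP replicate 3 is the highest library in all panels and mKate control RIP replicate 1 the lowest.

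IFE-1 RIP held more ribosomal protein mRNA than total RNA for a part of the family. Of 74 members tested, 23 were higher in the IFE-1 RIP and 2 were lower, with limma's adjusted p under 0.05. Of all 12099 genes tested, 4.12% were called higher and 6.07% lower. Among the 466 genes averaging 100 scaled TPM or more in these 2 groups, which are closer to the members in level, 18.2% were called higher and 13.1% lower. Here and below such sets of abundant genes include the members at that level, which draws their shares toward those of the members. The median log2 fold change of the members was 0.35, against -0.0054 over all genes tested and 0.036 over those 466. The members that rose were 15 of 43 rpl genes and 8 of 31 rps genes, by 1.40-fold to 2.57-fold. For 41 members the libraries of the groups did not overlap, 34 on the higher side and 7 on the lower. This held for 32.7% of the genes tested and for 55.8% of those with 100 scaled TPM or more, a share close to that of the members.

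The member with the largest rise was WBGene00004454, an rpl gene. It stood at 365, 447 and 475 scaled TPM in replicates 1, 2 and 3 of the IFE-1 RIP, against 153, 181 and 162 in total RNA (log2 change 1.36, SE 0.14, adjusted p in limma 0.0021). Its lowest IFE-1 RIP library lay well above its highest total RNA library. Its control libraries lay above total RNA in part, with 129, 191 and 268 in the mKate control RIP and 265, 264 and 632 in the GFP control RIP.

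WBGene00004448, also an rpl gene, stood at 1265, 1697 and 1799.5 in the IFE-1 RIP, against 625, 726 and 653 in total RNA (log2 change 1.23, SE 0.18, adjusted p in limma 0.00635). The rps gene WBGene00004494 stood at 803, 1043 and 968 in the IFE-1 RIP, against 435, 478 and 420 in total RNA (log2 change 1.07, SE 0.14, adjusted p in limma 0.00412). The groups were far apart for both genes. The rpl genes WBGene00004443 and WBGene00004456 rose as well, to 822 ± 112 and 634 ± 88.6 in the IFE-1 RIP, against 372 ± 17.4 and 301 ± 14.9 in total RNA (± SD, n = 3), with limma adjusted p-values of 0.00355 and 0.00514.

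The members that fell were both rpl genes. WBGene00004415 stood at 356, 459 and 437 scaled TPM in the IFE-1 RIP, against 653, 746 and 632 in total RNA (log2 change -0.70, SE 0.15, adjusted p in limma 0.0237). WBGene00004414 stood at 444, 539 and 493 in the IFE-1 RIP, against 692, 801 and 673 in total RNA (log2 change -0.56, SE 0.14, adjusted p in limma 0.0386). For both genes every IFE-1 RIP library lay below every total RNA library. The calls of the 5 members named as higher were lost only when all 15 libraries shared a single fit, among 19 other fits, while those of WBGene00004415 and WBGene00004414 were lost in 6 and 10 of them.

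How many members were called depended on which libraries entered the fit. The count was 0 with all 15 libraries in a single fit, 15 when genes of low level were kept, 14 of them higher against 1.33% of all genes, and 12 or 11 without any 1 of IFE-1 RIP replicates 2 and 3 and total RNA replicates 1 to 3. With unscaled TPM, where the median over all genes became 0.21, 34 members were called higher, against 9.36% of all genes, and 0 lower. Of the abundant ones 28.1% were called higher. After quantile normalization 26 were called higher and 7 lower, against 4.44% and 7.18% of all genes. Among the abundant genes these shares were 20.4% and 20.2%.

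In IFE-3 RIP fewer members were called. Against total RNA, 11 of 74 members were higher and 3 were lower by the same limma test, where 5.58% of all 12099 genes tested were called higher and 5.63% lower. Among 469 genes averaging 100 scaled TPM or more, 19.4% were called higher and 15.6% lower. The median log2 fold change of the members was 0.18, against 0.028 over all genes and 0.11 over those 469. The members' median was -0.019 when the libraries were scaled over the genes outside the 10 highest and 0.51 with unscaled TPM. It also rested on single libraries, being 0.31 without IFE-3 RIP replicate 1 and 0.038 without replicate 3, where 39 members were above 0 and 35 below. The members that rose were 8 of 43 rpl genes and 3 of 31 rps genes, by 1.37-fold to 2.05-fold. Separate groups were seen for 28 members on the higher side and 10 on the lower, for 31.3% of the genes tested and for 62.5% of the abundant ones.

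WBGene00004454 stood at 306, 332 and 379 scaled TPM in replicates 1, 2 and 3 of the IFE-3 RIP, and the total RNA values are those given above (log2 change 1.04, SE 0.14, adjusted p in limma 0.00619). WBGene00004448 stood at 1116, 1381 and 1604 in the IFE-3 RIP (log2 change 1.03, SE 0.18, adjusted p in limma 0.0138), and WBGene00004494 at 728, 868 and 840.0 (log2 change 0.87, SE 0.14, adjusted p in limma 0.00974). All 3 lay above total RNA in every IFE-3 RIP library. The rpl genes WBGene00004456 and WBGene00004443 rose to 548 ± 76.8 and 656 ± 72.3 in the IFE-3 RIP (± SD, n = 3). Among 19 other fits the calls of WBGene00004448 and WBGene00004456 were each lost in 3. Those of WBGene00004454, WBGene00004494 and WBGene00004443 were each lost in 1.

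WBGene00004415 fell to 381 ± 53.4 scaled TPM in the IFE-3 RIP, against 677 ± 60.4 in total RNA (± SD, n = 3, log2 change -0.82, SE 0.15, adjusted p in limma 0.0152). WBGene00004414 fell to 467 ± 54.5, against 722 ± 69.2 in total RNA (± SD, n = 3, adjusted p in limma 0.0272). The rps gene WBGene00004469 stood at 433, 549 and 554 in the IFE-3 RIP, against 739, 805 and 725 in total RNA (log2 change -0.56, SE 0.15, adjusted p in limma 0.0436), and this call was lost in 9 of 19 other fits. Those of WBGene00004414 and WBGene00004415 were lost in 8 and 4 of them. Both RIPs were set against the same 3 total RNA libraries, so values that stand out in both share that reference.

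As for IFE-1, the count of members called depended on the fit. It was 0 with all 15 libraries in a single fit. With library weights 28 members were called higher and 8 lower, against 20.5% and 16.9% of all genes. Among the abundant genes these shares were 36.2% and 26.4%. With unscaled TPM, where the median over all genes became 0.27, 33 were called higher and 1 lower, against 21.5% of all genes called higher. Of the abundant ones 39.4% were called higher and 8.17% lower. The split moved to 16 higher and 12 lower after quantile normalization, against 5.27% and 7.74% of all genes. It was 7 higher and 8 lower over the genes outside the 10 highest, against 2.54% and 9.36%. Among the abundant genes the shares were 17.8% and 21.9% after quantile normalization, and 9.76% and 25.4% over the genes outside the 10 highest. The latter scaling put 1158 genes at 100 or more, so its abundant set is wider. Leaving out replicate 2 of the IFE-3 RIP gave 5, all higher, against 1.16% of all genes and 7.74% of the abundant ones. Leaving out total RNA replicates 1, 2 or 3 gave 6, 6 or 8, of which 6, 6 and 7 were higher. In these fits 1.58%, 1.78% and 2.10% of all genes were called higher, and 8.47%, 10.1% and 9.75% of the abundant ones.

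**Figure D2:**
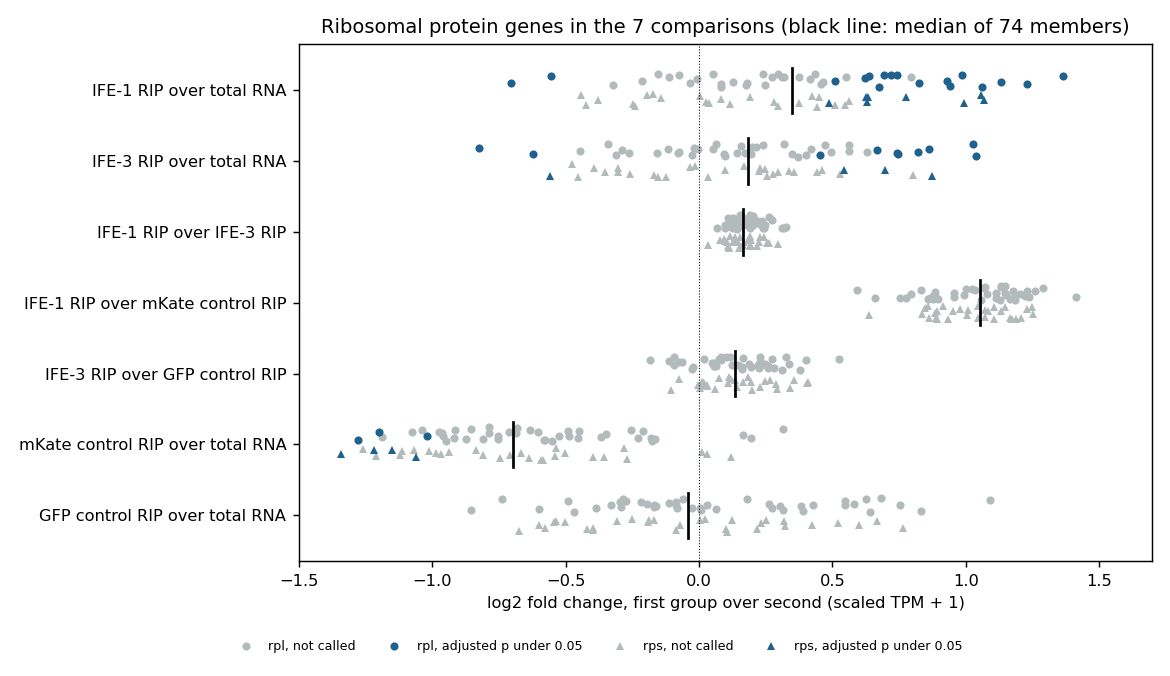
Log2 fold change of the 74 members tested in each of 7 comparisons, first group over second, with called members in blue and the median as a black line. The members spread widely against total RNA, from -0.70 to 1.36 in the IFE-1 RIP, and narrowly between the RIPs, from 0.035 to 0.33.

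**Figure D3:**
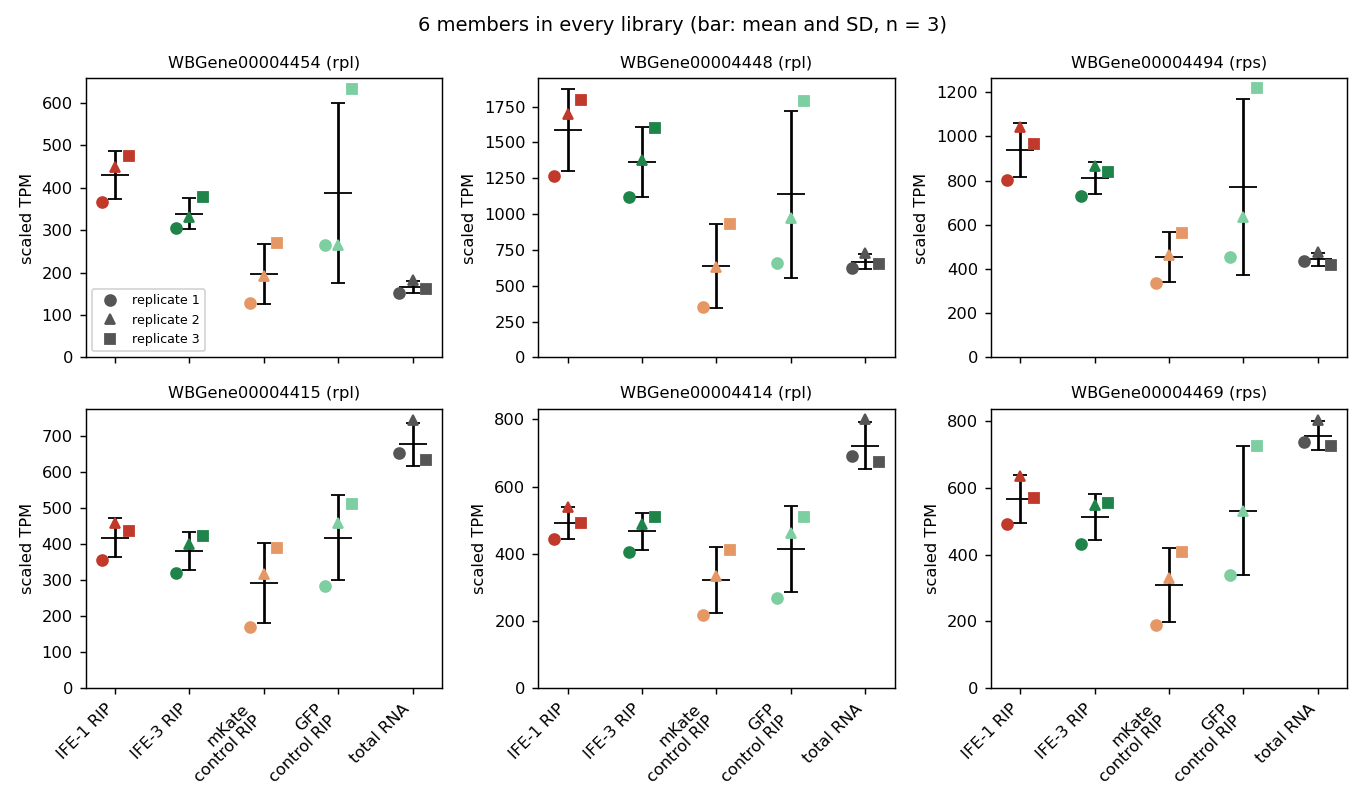
Scaled TPM of 6 members in all 15 libraries, with the mean and SD of 3 per group. WBGene00004454, WBGene00004448 and WBGene00004494 are higher in every IFE-1 RIP and IFE-3 RIP library than in total RNA, and WBGene00004415, WBGene00004414 and WBGene00004469 are lower.

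No ribosomal protein mRNA was called different between the paralogs. Set directly against IFE-3 RIP, 0 of 74 members were called in the IFE-1 RIP in either direction, and the lowest limma adjusted p was 0.254. Of all 12099 genes tested, 0.124% were called higher in the IFE-1 RIP and 1.40% lower. An unadjusted p under 0.05 was found for 2 members, both higher in the IFE-1 RIP, and for 400 genes higher and 1610 lower among all tested. All 74 members had a positive log2 fold change, from 0.035 to 0.33 with a median of 0.17, against a median of 0.024 over all genes. Among 474 genes averaging 100 scaled TPM or more the median was 0.14, close to that of the members. Single libraries moved these values: without IFE-3 RIP replicate 1 the members' median was 0.075 with 51 positive, without IFE-1 RIP replicate 2 it was 0.11 with 68 positive, without IFE-1 RIP replicate 3 it was 0.11 with 64 positive, without IFE-1 RIP replicate 1 it was 0.30 and without IFE-3 RIP replicate 3 it was 0.27. Separate groups were seen for 7 members, all higher in the IFE-1 RIP, for 20.6% of the genes tested and for 22.4% of the abundant ones, of which 0% were called higher and 9.49% lower. With the replicate number as a block 0 members were called, against 0.339% of genes called higher and 4.06% lower. With library weights 5 members were called higher, against 4.78% of all genes and 4.22% of the abundant ones.

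The members at either end of this comparison stood close together. WBGene00004454 had 429 ± 57.0 scaled TPM in the IFE-1 RIP and 339 ± 36.9 in the IFE-3 RIP (± SD, n = 3, log2 change 0.33, SE 0.14, adjusted p in limma 0.291). WBGene00004434, an rpl gene, had 541 ± 98.3 in the IFE-1 RIP and 427 ± 44.2 in the IFE-3 RIP (± SD, n = 3, adjusted p in limma 0.371). At the low end the rps gene WBGene00004473 had 593 ± 70.9 in the IFE-1 RIP and 575 ± 70.8 in the IFE-3 RIP (± SD, n = 3, log2 change 0.035, SE 0.14, adjusted p in limma 0.929), and WBGene00004414 had a log2 change of 0.066 with an SE of 0.14 (adjusted p in limma 0.863). The libraries of the 2 groups overlapped for all 4 genes.

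Libraries of the same number deviated together in this comparison, so they can be set side by side. IFE-1 RIP lay above the IFE-3 RIP for 74 of 74 members in replicate 1, for 74 in replicate 2 and for 67 in replicate 3. The median difference over the members was 0.14, 0.29 and 0.11 on the log2 scale. For 67 members IFE-1 RIP was higher in all 3 pairs, as it was for 23.4% of 14308 genes. The abundant genes were not counted alone. Members of 1 library share its scaling and are not independent, so this count describes 3 pairs of libraries.

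IFE-1 RIP was also set against the control of its own trap, which comes from another strain, LP307. Ribosomal protein genes stood higher in the IFE-1 RIP than in the mKate control RIP for all 74 members, their median log2 fold change being 1.05, with a range from 0.59 to 1.41, against a median of 0.0084 over all 12238 genes tested and 0.78 over 464 genes averaging 100 scaled TPM or more. No member was called, with a lowest limma adjusted p of 0.0780, while 64 had an unadjusted p under 0.05. At that unadjusted threshold 1824 of the 12238 genes were higher and 1533 lower, and the abundant genes were not counted alone. Of the genes tested, 0.311% were called higher and 0.163% lower, and of the abundant ones 0.216% and 0%. With the replicate number as a block, 39 members were called higher with limma, 21 rpl and 18 rps genes, where 8.55% of the genes tested were called higher and 4.15% lower, and 35.6% of the abundant ones higher. Separate groups were seen for 55 members, for 34.0% of the genes tested and for 51.7% of the abundant ones.

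In pairs of the same number, IFE-1 RIP lay above the mKate control RIP for 74 of 74 members in all 3 pairs, with a median difference of 1.46, 1.10 and 0.58 on the log2 scale in replicates 1, 2 and 3. Of 14308 genes, 28.1% were higher in all 3 pairs. The abundant genes, whose median log2 fold change was 0.78 here, were not counted alone, so this count does not set the members apart. Members of 1 library share its scaling and are not independent. The pair of replicate 3 was the closest. WBGene00004448 stood at 1587 ± 284 scaled TPM in the IFE-1 RIP and 638 ± 293 in the mKate control RIP (± SD, n = 3, log2 change 1.41, SE 0.40, adjusted p in limma 0.101, and 0.0393 with the block). WBGene00004456 stood at 539, 649.8 and 714 in the IFE-1 RIP and at 136, 282 and 446 in the mKate control RIP (log2 change 1.29, SE 0.44, adjusted p in limma 0.130, and 0.0514 with the block). At the other end were WBGene00004473, with a log2 change of 0.64 and an SE of 0.28 (adjusted p in limma 0.202), and WBGene00004415, with 0.59 and an SE of 0.34 (adjusted p in limma 0.290). The groups overlapped for WBGene00004415 and were apart for the other 3.

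Single libraries weighed on this comparison. Without mKate control RIP replicate 3, 46 members were called higher, against 7.99% of all genes and 31.5% of the abundant ones, and without replicate 1, which had the lowest ribosomal protein level of all libraries, 0 were called and the median log2 fold change was 0.71. With quantile normalization the median was 0.25, and with library weights 52 members were called higher, against 13% of all genes and 41.2% of the abundant ones.

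No member was called between the bait and the control of the GFP trap. Against GFP control RIP, 0 of 74 members were called in the IFE-3 RIP, with a lowest limma adjusted p of 0.737, and 0 had an unadjusted p under 0.05. Of 12249 genes tested, 0.0653% were called higher and 0.0245% lower, and of 500 with at least 100 scaled TPM 0.200% and 0%. With the replicate number as a block 0 members were called, against 0.596% of genes higher and 0.555% lower. The median log2 fold change of the members was 0.13, with a range from -0.18 to 0.53, against 0.019 over all genes and 0.25 over the 500 abundant ones. The members' median changed sign with the scaling: it was -0.24 with TPM as deposited, where the median of all genes was -0.29, -0.34 over the genes outside the 10 highest and -0.36 after quantile normalization. The groups were apart for 0 members, for 18.7% of the genes tested and for 23.6% of the abundant ones.

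The direction differed between libraries of the control. In pairs of the same number, IFE-3 RIP was higher for 74 of 74 members in replicate 1 and for 70 in replicate 2, with median differences of 0.49 and 0.30 on the log2 scale, but for 1 member in replicate 3, where the median difference was -0.35. Without that control library the median log2 fold change was 0.44, and without GFP control RIP replicate 1 it was -0.16. With either left out limma called 0 members, and 9 and 0 had an unadjusted p under 0.05. Without GFP control RIP replicate 3 that threshold was met by 1141 of 11571 genes on the higher side and 600 on the lower. The widest values were those of WBGene00004453, with 2838 ± 673 scaled TPM in the IFE-3 RIP and 2140 ± 1215 in the GFP control RIP (± SD, n = 3, log2 change 0.53, SE 0.46, adjusted p in limma 0.737), and of WBGene00004434, with 427 ± 44.2 and 520 ± 253 (± SD, n = 3, log2 change -0.18, SE 0.37, adjusted p in limma 0.910). The rps gene WBGene00004481 had 587.5 ± 101 in the IFE-3 RIP and 483 ± 265 in the GFP control RIP, and the rpl gene WBGene00004427 had 198 ± 16.6 and 228 ± 95.9 (± SD, n = 3).

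The difference between these bait over control differences was tested in a single fit of the 12 trap libraries. It was positive for all 74 members, from 0.44 to 1.30 with a median of 0.90 on the log2 scale, against a median of 0.0086 over 14114 genes. No median over the abundant genes was computed for this difference, so it does not set the members apart from genes of like level. Taken singly, the abundant genes' medians were 0.78 for IFE-1 RIP over mKate control RIP and 0.25 for IFE-3 RIP over GFP control RIP. No member was called by limma, with a lowest adjusted p of 0.227, and 9 had an unadjusted p under 0.05, while 0.319% of all genes were called. With the replicate number as a block 0 members were called, the lowest adjusted p was 0.0597, 65 members had an unadjusted p under 0.05, and 6.54% of all genes were called. How many of all genes had an unadjusted p under 0.05 was not counted for this difference, so these counts do not set the members apart.

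The controls were also set against total RNA of KX155. In mKate control RIP 7 of 74 members were lower, 3 rpl and 4 rps genes, and 0 were higher with limma, where 8.13% of 11483 genes were called lower and 6.05% higher. Among 430 genes averaging 100 scaled TPM or more, 25.8% were called lower and 4.42% higher. Separate groups were seen for 35 members, all lower, for 40.4% of the genes tested and for 60.7% of the abundant ones. The median log2 fold change of the members was -0.70, and 68 of 74 were below 0. The median was -0.012 over all genes and -0.63 over the 430 abundant ones, close to that of the members. The size of the members' median changed with the scaling and with the lowest library: it was -0.15 with TPM as deposited, with 48 members below 0, -0.029 after quantile normalization, with 43 below 0, and -0.35 without mKate control RIP replicate 1, with 62 below 0. The rps gene WBGene00004469 stood at 190.0, 331 and 409 scaled TPM in the mKate control RIP, against 739, 805 and 725 in total RNA (log2 change -1.34, SE 0.30, adjusted p in limma 0.0347). WBGene00004415, WBGene00004471, WBGene00004414 and WBGene00004475 fell too, the second and the last being rps genes, by 1.15 to 1.28 on the log2 scale. Among 18 other fits the calls of WBGene00004469 and WBGene00004414 were each lost in 6. Those of WBGene00004415, WBGene00004471 and WBGene00004475 were each lost in 8. WBGene00004443 and WBGene00004454 were at the high end, with 493 ± 220 and 196 ± 70.1 in the mKate control RIP and log2 fold changes of 0.32 ± 0.33 SE and 0.20 ± 0.28 SE, and neither was called.

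The count for mKate control RIP was unstable. It was 0 without mKate control RIP replicate 2, without any of the total RNA replicates and when genes of low level were kept. It was 8 without mKate control RIP replicate 1, against 4.44% of all genes called lower and 22.6% of the abundant ones. It was 49 without mKate control RIP replicate 3, against 16.1% of all genes and 56.5% of the abundant ones. With TPM as deposited, where the median of all genes was 0.42, 4 members were called higher and 2 lower, against 34.1% and 2.20% of all genes. After quantile normalization 5 were called higher and 2 lower, against 4.69% and 5.47%. Of the abundant ones 16.7% and 17.6% were called higher and lower with TPM as deposited, and 13.8% and 14.6% after quantile normalization.

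In GFP control RIP 0 of 74 members were called against total RNA, with a lowest limma adjusted p of 0.239 and 4 members with an unadjusted p under 0.05, while 0.370% of 11615 genes were called higher and 0.465% lower, and of 457 abundant ones 0% and 3.94%. Separate groups were seen for 12 members, for 23.5% of the genes tested and for 33.7% of the abundant ones. The median log2 fold change was -0.043, with 36 members above 0 and 38 below. WBGene00004454 stood at 387 ± 212 scaled TPM in the GFP control RIP, against 165 ± 14.6 in total RNA (± SD, n = 3, log2 change 1.09, SE 0.38), and WBGene00004443 at 747 ± 461, against 372 ± 17.4 (± SD, n = 3). WBGene00004414 stood at 414 ± 128, against 722 ± 69.2 (± SD, n = 3, log2 change -0.86, SE 0.32), and WBGene00004415 had a log2 change of -0.74 with an SE of 0.31. With TPM as deposited 15 members were called higher, against 16.4% of all genes. After quantile normalization 9 were, against 0.672%, and over the genes outside the 10 highest 3 were, against 1.05%. Of the abundant ones 12.1%, 4.75% and 2.06% were called higher in the same order. Without GFP control RIP replicate 3 the median was -0.38, and without replicate 1 it was 0.28.

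In scaled TPM the order of the 5 groups was alike for most members. The highest mean of log2 levels was in the IFE-1 RIP for 57 of the 74 members and in total RNA for 17, and the lowest was in the mKate control RIP for 68 and in total RNA for 6. The median member stood at 593 ± 79.1 scaled TPM in the IFE-1 RIP, 523 ± 65.3 in the IFE-3 RIP, 515 ± 225 in the GFP control RIP, 506 ± 23.8 in total RNA and 317 ± 125 in the mKate control RIP (± SD, n = 3). The libraries of IFE-1 RIP, IFE-3 RIP, GFP control RIP and total RNA overlapped in this median, and every mKate control RIP library lay below every total RNA library. This order depends on the scaling. In TPM as deposited the median member stood at 648 ± 247 in the GFP control RIP, 563 ± 74 in the IFE-1 RIP, 515 ± 78.6 in the IFE-3 RIP, 393 ± 14.8 in total RNA and 356 ± 110 in the mKate control RIP (± SD, n = 3). On that scale every GFP control, IFE-1 and IFE-3 library lay above every total RNA library, and mKate control RIP replicate 3, at 465, did so too. The group means were farthest apart for WBGene00004448 and WBGene00004454, by 1.41 and 1.37 on the log2 scale. Among the 74 they were closest for the rpl genes WBGene00004437 and WBGene00004417, by 0.77 and 0.75.

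Counted by library, 35, 58 and 52 of the 74 members lay above all total RNA libraries in replicates 1, 2 and 3 of the IFE-1 RIP, and 27, 9 and 9 lay below all of them. In IFE-3 RIP 28, 40 and 51 lay above and 34, 21 and 12 below. In mKate control RIP 0, 3 and 28 lay above and 74, 66 and 35 below, and in the GFP control RIP 8, 21 and 63 lay above and 59, 38 and 4 below. Within every trap group the libraries thus differed from each other in how many members they put above total RNA. The same count was not made over all genes or over abundant ones. These numbers therefore describe the libraries and do not set the members apart from other genes.

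Within a group, part of the members' difference between libraries was a shift that the members shared. The median SD of a member's log2 level over the 3 libraries was 0.23 in the IFE-1 RIP, 0.21 in the IFE-3 RIP, 0.63 in the mKate control RIP, 0.65 in the GFP control RIP and 0.11 in total RNA. When each library was centred on the median of its 74 members, it was 0.11, 0.10, 0.15, 0.15 and 0.073 in the same order. Over 476 genes averaging 100 scaled TPM or more, members at that level included, the uncentred value was 0.25, 0.22, 0.49, 0.64 and 0.11. The members were thus about as variable as this whole set in the IFE RIPs, GFP control RIP and total RNA. No centred value was computed for the abundant genes, so the shared shift does not set the members apart from them.

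**Figure D4:**
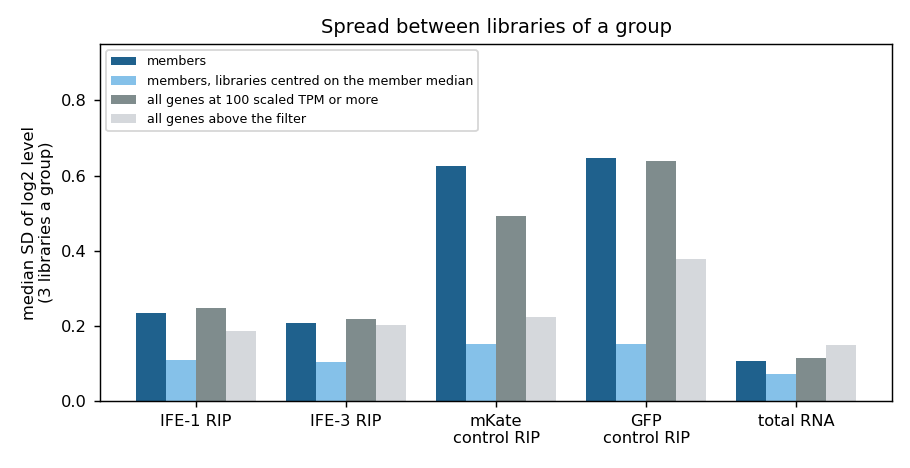
Median SD of the log2 level over the 3 libraries of each group, for the members, for the members after centring each library on its member median, for genes at 100 scaled TPM or more and for all genes above the filter. The members' spread in the mKate control RIP falls to 0.15 from 0.63 when the libraries are centred.

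The member with the largest spread after centring was WBGene00004438, an rpl gene, with a pooled SD of 0.36 on the log2 scale. It stood at 109, 162 and 223 scaled TPM in replicates 1, 2 and 3 of the IFE-1 RIP, at 103, 129 and 210.0 in the IFE-3 RIP, at 38.4, 84.8 and 149 in the mKate control RIP, at 73.6, 85.5 and 280.0 in the GFP control RIP and at 130, 114 and 143 in total RNA. Replicate 3 was the highest library in all 5 groups. The rps genes WBGene00004491 and WBGene00004490 came next, with 0.31 and 0.30, and the smallest value, 0.057, was that of the rpl gene WBGene00004432. These members were chosen after their values were seen.

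Once the libraries were centred on the member median, the members kept a pattern against total RNA that was alike in all 4 trap groups, the controls included. Of the 74 members, 33 lay above total RNA in all 4 groups and 26 below in all 4, and 15 were mixed. All 4 groups are set against the same total RNA libraries, so the groups are not independent here. The SD of the centred difference over the members was 0.45 in the IFE-1 RIP, 0.41 in the IFE-3 RIP, 0.39 in the mKate control RIP and 0.43 in the GFP control RIP. WBGene00004454 lay above total RNA by 1.14 in the IFE-1 RIP, 0.99 in the IFE-3 RIP, 0.94 in the mKate control RIP and 1.16 in the GFP control RIP on this scale. WBGene00004415 lay at -0.92, -0.87, -0.54 and -0.67 in the same groups.

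Against the control of the same trap, which shares no library with total RNA, the members differed less from each other. The interquartile range of their log2 fold changes was 0.61 for IFE-1 RIP and 0.57 for IFE-3 RIP over total RNA, but 0.26 for IFE-1 RIP over mKate control RIP, 0.21 for IFE-3 RIP over GFP control RIP and 0.084 for IFE-1 RIP over IFE-3 RIP. It was 0.52 for mKate control RIP and 0.61 for GFP control RIP over total RNA. Over the genes averaging 100 scaled TPM or more it was 0.92 and 0.97 for IFE-1 RIP and IFE-3 RIP over total RNA, 0.65 and 0.79 over their controls, 0.18 for IFE-1 RIP over IFE-3 RIP and 0.81 and 0.80 for mKate control RIP and GFP control RIP over total RNA. All 4 comparisons with total RNA share its libraries.

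**Figure D5:**
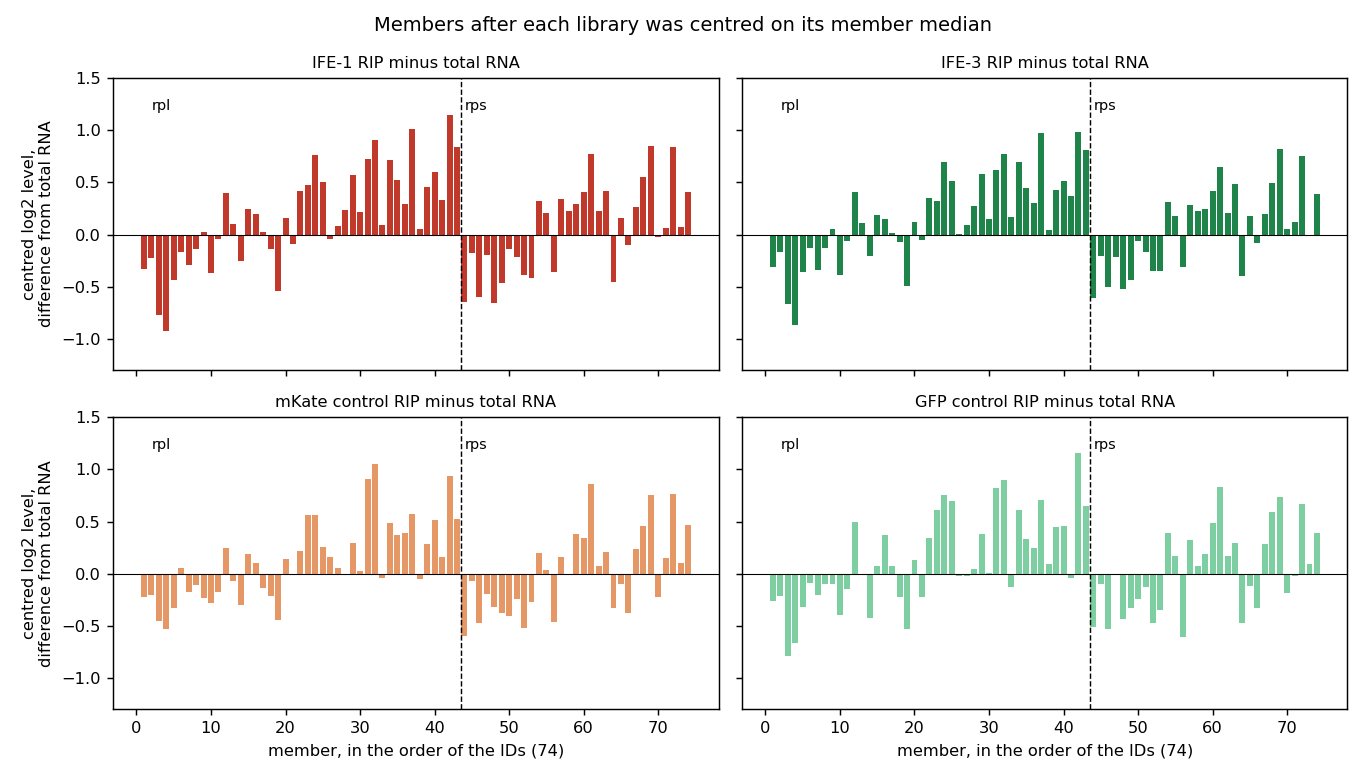
Difference from total RNA of the centred log2 level of each of the 74 members, in the order of their IDs, in the 4 trap groups. Members of low ID in each class lie mostly below total RNA and members of high ID above it, in the controls as in the IFE RIPs, and all panels share the total RNA libraries.

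The differences from total RNA were ordered along the IDs, a split chosen after the values were seen and given with no test. Of the 10 rpl members tested with the lowest IDs, 3 had a positive log2 fold change in IFE-1 RIP over total RNA, with a median of -0.095 and 0 called higher. Of the 10 with the highest IDs, 10 were positive, with a median of 0.78 and 8 called higher. For the rps members the medians were -0.18 and 0.43, with 0 and 5 called higher. In GFP control RIP over total RNA the medians were -0.31 and 0.39 for the rpl members and -0.41 and 0.12 for the rps members, and in mKate control RIP over total RNA -0.97 and -0.30, and -1.09 and -0.55. Between the IFE-1 RIP and IFE-3 RIP the same ends had medians of 0.14 and 0.20 for the rpl members and 0.13 and 0.19 for the rps members. The sources used here pair no length, sequence or protein with the IDs, so what the order along them stands for was not tested.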

How the data were processed

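RNA of 15 libraries in 5 groups of 3 was analysed. The authors deposited TPM per gene, and the notes on processing that the submitters gave list, in no order and with no role, R 4.4.1, DESeq2 1.34.0, kallisto 0.48.0 and build WBcel235 (per the submitters' processing notes). For transcript annotation and read filters nothing is given in these sources. Per the labels' protocols, rRNA was depleted and strand was not kept, so overlapping antisense genes cannot be told apart.

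Each library was divided by its median ratio to the geometric mean taken over genes that no library of the fit lists at 0. Genes reaching 1 TPM in 3 or more libraries were tested on log2(scaled TPM + 1), a scale that understates changes of low genes, with limma 3.58.1 in R 4.3.3 (lmFit and trended eBayes). P-values are two-sided and Benjamini-Hochberg adjusted over all genes tested. All 3 KX155 groups shared a fit of 9 libraries, and every other comparison used its 6 libraries. Values per library used factors over all 15 libraries. The code was tested on simulated data.

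Members and lists were chosen with earlier results of these data known. Named members are the 5 highest and 5 lowest in total RNA, per comparison up to 5 called members in each direction with the largest change and the 2 at either end, and the members with the largest and smallest range of group means. Lists of tissue markers, elongation factors, eIF3 subunits, mitochondrial ribosomal proteins and ribosome biogenesis genes need symbols and were not applied.

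Replicate numbers were taken to pair the libraries where all 3 same-numbered pairs correlated by over 0.1 in their deviations from the group means, which held for IFE-1 RIP with IFE-3 RIP (0.224, 0.149 and 0.396), IFE-1 RIP with mKate control RIP (0.168, 0.152 and 0.353) and IFE-3 RIP with GFP control RIP (0.191, 0.173 and 0.273). This pairing comes from the data, not the labels. Alternatives were the scaling, the pseudocount, the filter, the trend, library weights, the libraries in a fit, the replicate block and leaving out each library. The test of the difference between both bait over control differences, the centring on the member median and the background among genes at 100 scaled TPM or more were added after seeing the data.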

Additional observations from a re-analysis of the deposited data

How the results depend on the processing

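The number of members called moved by more than 1.5 times as follows. IFE-1 RIP over total RNA (25 called) gave 15 without a filter on low values, 0 when 1 fit held all 15 libraries and between 11 and 26 with a library left out. With a library left out 2.05% to 3.03% of all genes were called higher, and 9.94% to 17.1% of the abundant ones. IFE-3 RIP over total RNA (14 called) gave 34 with TPM as deposited, 28 after quantile normalization, 36 with library weights and 0 with all 15 libraries. With a library left out it gave between 5 and 14. In those fits 1.16% to 8.60% of all genes were called higher, and 7.74% to 19.7% of the abundant ones. IFE-1 RIP over IFE-3 RIP (0) gave 5 with library weights, and IFE-1 RIP over mKate control RIP (0) gave 52 with library weights and between 0 and 46 with a library left out. mKate control RIP over total RNA (7) gave 0 without a filter and between 0 and 49 with a library left out. With a filter at 5 TPM it gave 12, where 7.19% of all genes were called higher and 15.7% lower, and 5.12% and 29.8% of the abundant ones. With library weights it gave 38, where 17.0% of all genes were called higher and 19.9% lower, and 6.74% and 55.1% of the abundant ones. GFP control RIP over total RNA (0) gave 15 with TPM as deposited, 3 over the genes outside the 10 highest and 9 after quantile normalization. IFE-3 RIP over GFP control RIP gave 0 in all fits run. The causes were not tested. With the replicate block the count was 39 for IFE-1 RIP over mKate control RIP, where the numbers pair the libraries, and the block changed no other call of the paired comparisons. Against total RNA the rule of over 0.1 in all 3 same-numbered pairs was not met. The lowest same-number correlations were 0.0346, 0.0552, -0.0157 and 0.0697 for IFE-1 RIP, IFE-3 RIP, mKate control RIP and GFP control RIP. The highest correlations between libraries of unlike number were 0.0865, 0.00241, 0.0751 and 0.0228 in the same order. Same-numbered pairs all lay above the unlike ones for IFE-3 RIP and GFP control RIP, but not for IFE-1 RIP and mKate control RIP. Whether the numbers pair these libraries was not tested. The replicate block gave 34 for IFE-1 RIP (29 higher and 5 lower, against 6.76% and 10.2% of all genes). It gave 25 for IFE-3 RIP (18 higher and 7 lower, against 9.31% and 8.65%), 0 for mKate control RIP and 0 for GFP control RIP. With the block 22.7% of the abundant genes were called higher and 17.4% lower for IFE-1 RIP, and 22.8% and 20.0% for IFE-3 RIP. The summed share of TPM was 4.92%, 4.51%, 2.96%, 5.46% and 3.13% in IFE-1 RIP, IFE-3 RIP, mKate control RIP, GFP control RIP and total RNA, and 14.9%, 12.4%, 10.8%, 15.4% and 12.5% with the 10 highest genes left out of the total. The median member in total RNA was 506 scaled TPM and 393 TPM as deposited. No called member that is named changed sign in any fit. Of their calls 73 held and 47 were lost with a library left out, and 215 held and 40 were lost in the other fits. Depth cannot be read from TPM.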
